A study of Mus musculus with 2 samples.

Results

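The receptors described here are Kit, Flt3, Csf1r, Epor, Il3ra, Csf2ra, Csf2rb and Il6st, 8 genes of the 14314 tested in a comparison of LMO2 siRNA with control siRNA in G1E-ER-GATA-1 cells. Their members were taken by gene name: every non-control spot whose array symbol or current RefSeq symbol was one of the 8, older aliases included. This gave 12 probes in 21 spots per array, out of 41174 probes, and all 12 were well above background in at least 1 channel on each array. Each gene had 1 probe except Csf1r and Csf2rb, which had 3 each, and the Kit probe was printed in 10 spots.

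G1E-ER-GATA-1 cells are a mouse erythroid line, labelled GATA-1-null, in which a GATA-1 fused to the estrogen receptor is switched on by estradiol. The labels give the tissue as erythroid but name the cell type as murine ES cells. The LMO2 siRNA arm and the control siRNA arm share this background, and both were treated with estradiol for 24 h after transfection. There was no arm without estradiol. The design text describes the estradiol step as inducing GATA-1-dependent erythroid maturation, and the comparison concerns expression when Lmo2 is lowered under it. Both arms' RNA shared each of 2 dual-colour arrays, with the LMO2 siRNA arm in Cy3 and the control arm in Cy5 on both, so a dye effect and the siRNA effect cannot be told apart. The arrays carry replicate numbers in the labels, with nothing on whether the cultures were separate, so a p-value measures only the spread between these samples, which may be technical.

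Cytokine receptors carry survival and growth signals into blood progenitors. Kit, Flt3 and Csf1r are receptor tyrosine kinases of one family, for stem cell factor, Flt3 ligand and macrophage colony-stimulating factor. The erythropoietin receptor Epor signals through Jak2 and is required for the survival of maturing erythroid cells, whereas Kit is prominent on earlier progenitors and mast cells and declines as red cells mature. Il3ra and Csf2ra are the ligand-specific chains for interleukin-3 and granulocyte-macrophage colony-stimulating factor and share the signalling chain Csf2rb, and Il6st (gp130) is the shared signalling chain of the interleukin-6 family.

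Probes were not aligned to transcripts, so their gene names rest on the array symbols and RefSeq identifiers. The probes for Kit, Epor, Csf2ra, and both unsaturated Csf2rb probes share no run of 20 bases with any other probe on the array. The saturated Csf2rb probe shares such a run with 1 other probe. This compares array probes only and does not test which transcripts they bind. For the genes the results turn on, the first 30 bases of the 60-base probe, 5′ to 3′ as listed for the array, were as follows.
Kit: tgtggtcatgtacgagactgtcaccagtta
Epor: gaacgggattggtgaagccatacttaaagt
Csf2ra: tcataaaatccaacgtgccttcatgatcaa
Csf2rb, first unsaturated probe: tcaagtagagggaccaactcctaacagacc
Csf2rb, second unsaturated probe: cctcaccttgctcctgatccttcgctttgg

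LMO2 belongs to a complex with GATA-1 and TAL1 that binds GATA and E-box motifs, so the promoters of Kit and Epor are shown with those motifs marked. They are the 250 bases before the RefSeq gene start in build GRCm38.p6, with matches to a GATA motif (GATAA or GATAG preceded by A or T), an E-box (CAGCTG or CATCTG) or a GC box (GGGCGG), on either strand, in capitals.
Kit, chr5:75574737-75574986, plus strand: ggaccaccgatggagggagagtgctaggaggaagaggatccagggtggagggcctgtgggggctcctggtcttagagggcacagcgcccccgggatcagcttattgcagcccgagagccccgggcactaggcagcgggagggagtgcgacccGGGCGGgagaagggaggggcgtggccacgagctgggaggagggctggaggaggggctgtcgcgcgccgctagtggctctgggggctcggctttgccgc
Epor, chr9:21963577-21963826, minus strand: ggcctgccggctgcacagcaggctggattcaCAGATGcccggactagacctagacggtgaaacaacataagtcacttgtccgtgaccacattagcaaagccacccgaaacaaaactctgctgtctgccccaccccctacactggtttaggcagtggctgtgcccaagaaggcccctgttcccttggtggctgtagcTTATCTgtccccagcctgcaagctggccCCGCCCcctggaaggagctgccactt

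The Epor window held 1 GATA match, 54 bases before the start on the opposite strand, 1 E-box match and 1 GC box. The Kit window held 1 GC box and no GATA or E-box match. Among the 6 receptor genes whose windows were read, Epor and Il3ra held a GATA match and Flt3, Epor and Csf2ra an E-box match. Windows of Csf1r and Csf2rb were not read. Of 32851 promoter windows of the same length, 26.5% held a GATA match, 25.5% an E-box and 32.7% a GC box. These matches describe letters in the window and not binding sites.

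Ratios are log2 values of LMO2 siRNA over control siRNA, given as mean ± SD over both arrays (n = 2). It was computed in 3 ways from the same spots: from background-corrected, loess-normalised mean signals, from the same with the scanner's correction for position on the array, and from the scanner's processed signals. "Rose" and "fell" are kept for unsaturated genes that passed limma's moderated test (Benjamini-Hochberg adjusted p below 0.05 over all 14314 genes) in one direction in all 3. Of all genes, 24.5% were called higher and 27.4% lower on the first set of values, and 5.44% rose and 2.56% fell by the stricter rule. With position correction 20.3% were called higher and 17.9% lower, and on processed signals 6.82% and 3.42%. With 28 prior and 1 residual degrees of freedom, a p-value from the first set rests mostly on variance pooled over genes. Between 55.8% and 68.2% of spots per channel were well above background. Log2 ratios of the arrays correlated across genes with r = 0.90 on the first set, 0.87 with position correction and 0.74 on processed signals. Lmo2, the targeted gene, fell by 1.92 ± 0.14 (adjusted p = 3.6e-21, limma), from normalised intensities of 6114 and 6361 to 1735 and 1573.

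Kit and Csf2ra rose and no receptor gene fell, beside 5.44% and 2.56% of all genes. On the first set of values alone, 5 of the 8 were called higher (Kit, Epor, Il3ra, Csf2ra and Csf2rb) and 1 lower (Flt3), beside 24.5% and 27.4% of all genes. The median log2 ratio of the 8 was 0.26, against -0.018 over all genes. It was 0.16 with position correction and 0.16 on processed signals, and under median centring in place of loess it was -0.28, against -0.40 over all genes. These medians and counts include a saturated Csf2rb probe, for which no fold can be given.

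**Figure D1:**
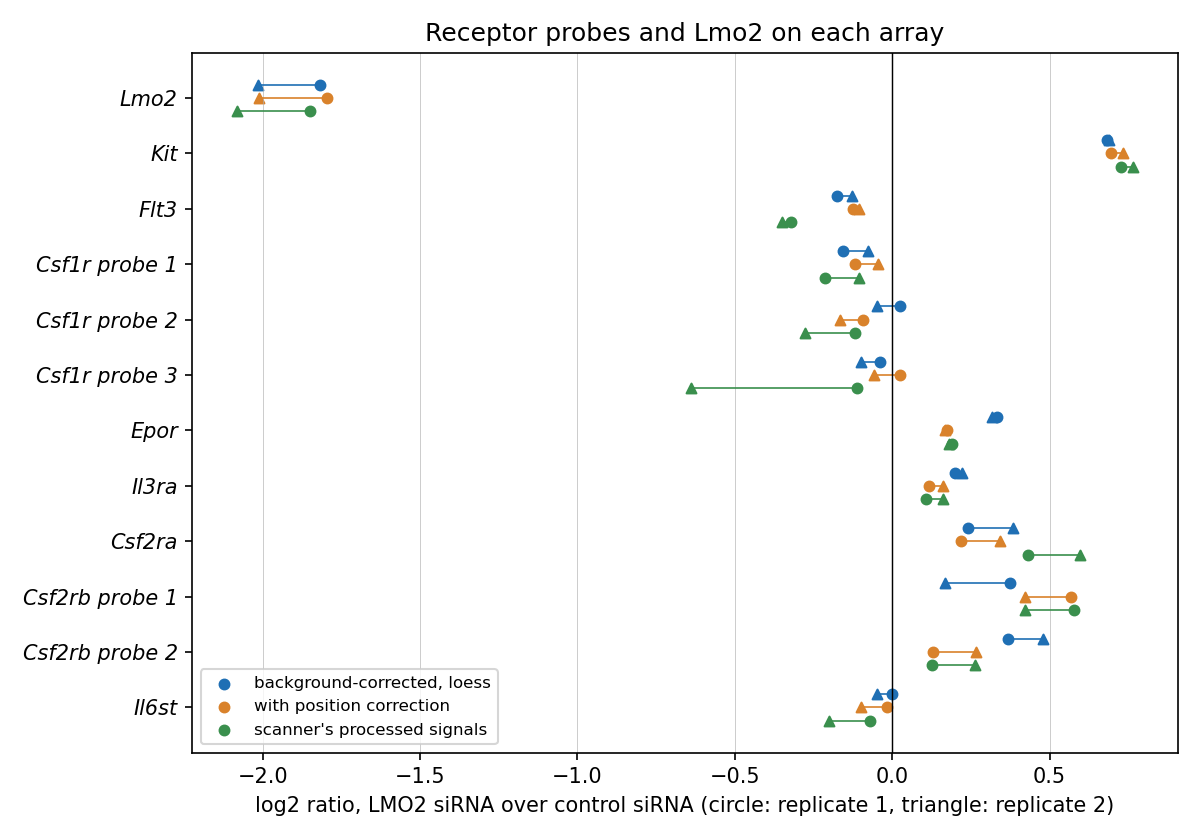
Log2 ratio (x axis, LMO2 siRNA over control siRNA) of each unsaturated receptor probe and of Lmo2 on replicate 1 (circles) and replicate 2 (triangles), in 3 colours for the 3 sets of values. Kit lies between 0.68 and 0.76 in every set, Epor moves from 0.32 to 0.17 with position correction, and the 2 unsaturated Csf2rb probes change order with it.

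Kit was the receptor with the largest unsaturated change. Its normalised intensity was 1227 on replicate 1 and 1398 on replicate 2 with LMO2 siRNA, against 765 and 867 with control siRNA. The arms did not overlap, and the ratio was nearly the same on both arrays, at 0.68 and 0.69. The mean log2 ratio was 0.69 ± 0.0057, or 1.61-fold (adjusted p = 1.9e-11, limma). With position correction it was 0.71 ± 0.025 (adjusted p = 4.9e-06, limma), and on processed signals it was 0.75 ± 0.026 (adjusted p = 0.028, limma). Of 14076 unsaturated genes, 276 had a higher log2 ratio than Kit on the first set of values. Before normalisation, the Kit spots averaged 914 and 1045 in the Cy3 channel (LMO2 siRNA) and 1017 and 1145 in the Cy5 channel, so the rise is relative to the balance of the dyes over the whole array.

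The 10 Kit spots give a view of position that the other receptors, with 1 spot per probe, do not have. On replicate 1 the spots ran from 0.39 in row 74 to 0.97 in row 480, and on replicate 2 from 0.37 to 0.98 in the same rows, with an SD of 0.21 on each array. All 20 values were above 0, and the scanner's own error model gave a p-value under 0.01 for all 20. Ratios were lower in the first rows than in the last: the 5 spots in the lowest-numbered rows averaged 0.34 less than the 5 in the highest-numbered rows. The same direction was seen in 137 of 144 probes printed in 10 spots, with a median difference of -0.20. With position correction, the spots lay between 0.62 and 0.77 on replicate 1 and between 0.67 and 0.78 on replicate 2.

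**Figure D2:**
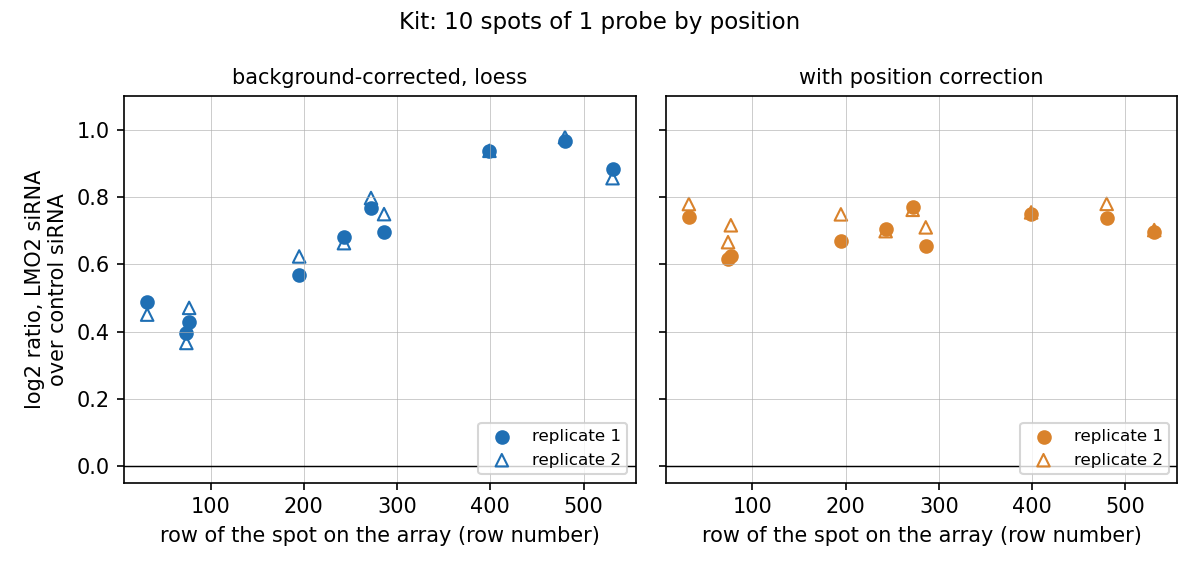
Log2 ratio of each of the 10 spots of the Kit probe (y axis) against its row on the array (x axis), for replicate 1 (filled circles) and replicate 2 (open triangles). Without position correction (left) the spots climb from about 0.39 in row 74 to 0.97 in row 480, and with it (right) they lie between 0.62 and 0.78.

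Genes with values most like those of Kit were Mmachc (0.66), Rin3 (0.65), Dhrs1 (0.65), Acaa2 (0.72) and Gp5 (0.62), by Euclidean distance over 4 log2 values, those of both arrays with and without position correction. Their distances to Kit ran from 0.054 to 0.096. Processed signals were not part of the distance, and on them Rin3 was 1.03 and Gp5 1.31, against 0.75 for Kit. On the same signals Mmachc was 0.79, Dhrs1 0.77 and Acaa2 0.75. Acaa2 encodes a mitochondrial thiolase of fatty acid oxidation, Mmachc a cobalamin-processing protein and Gp5 a platelet membrane glycoprotein.

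Mast cells also carry Kit, so their markers were read beside it. Of 12 mast cell and basophil markers, 10 were measured, 5 were called higher and none lower on the first set, and 2 rose: Hdc, the histamine-forming enzyme, at 1.22 ± 0.084, and Cpa3, a mast cell protease, at 0.37 ± 0.13. On processed signals Cpa3 was 1.25. Mitf was 0.38 ± 0.27 and Tpsab1 0.26 ± 0.030 on the first set, without passing in all 3, and Tpsab1 was 2.69 on processed signals (adjusted p = 0.052, limma). Il1rl1 was 0.23 ± 0.050 and did not pass in all 3 either. The measured markers not called on the first set were Mcpt4 (0.065), Tpsb2 (0.013), Fcer1a (-0.026), Cma1 (-0.029) and Prss34 (-0.064). With position correction Prss34 was called lower (-0.175, adjusted p = 0.027, limma), and on processed signals it was -0.34. Mcpt8 and Ms4a2 were not well above background. On the first set 50% of the measured markers were called, beside 51.9% of all genes. The log2 ratios of the list ran from -0.064 to 1.22 with a median of 0.15, and the part of these markers in the Kit value was not tested. In RNA from bulk cells, more cells of a type and more RNA per cell cannot be told apart.

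The other receptor tyrosine kinases of the Kit family did not rise. Flt3 had normalised intensities of 122 and 110 with LMO2 siRNA and 138 and 120 with control siRNA, lower on each array but overlapping between arrays. Its log2 ratio was -0.15 ± 0.034 (adjusted p = 0.024, limma), -0.12 with position correction (adjusted p = 0.1, limma) and -0.34 on processed signals (adjusted p = 0.06, limma). The brightest Csf1r probe was -0.12 ± 0.055 (adjusted p = 0.083, limma), and the other Csf1r probes were -0.012 ± 0.052 and -0.068 ± 0.042. None of the 3 Csf1r probes was called in any set of values.

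Epor, the receptor most tied to the erythroid lineage, had a small higher value that did not pass in all 3 sets. Its normalised intensity was 10906 and 9533 with LMO2 siRNA and 8666 and 7660 with control siRNA, without overlap. The log2 ratio was 0.32 ± 0.011, or 1.25-fold (adjusted p = 1.5e-05, limma). With position correction it was 0.17 ± 0.0046 (adjusted p = 0.024, limma), and on processed signals it was 0.18 ± 0.0058 (adjusted p = 0.12, limma). The Epor spot lies in row 465, among the rows where the Kit spots were also high. Under median centring in place of loess, the Epor value turned to -0.39, as given with the other receptors below.

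The α chains of the interleukin-3 and GM-CSF receptors were both above 0 in the 3 sets of values. Under median centring Il3ra reversed to -0.37 (adjusted p = 4.6e-04, limma) and Csf2ra was 0.013 (adjusted p = 0.92, limma). Csf2ra had normalised intensities of 168 and 218 with LMO2 siRNA and 142 and 167 with control siRNA, so it was dim and the arms were just apart. It rose by 0.31 ± 0.10 (adjusted p = 3.3e-05, limma), with 0.28 ± 0.088 after position correction (adjusted p = 0.0029, limma) and 0.51 ± 0.12 on processed signals. The last value passed by a narrow margin (adjusted p = 0.0497, limma). In the same test on the ratios of the series' own table it did not pass (adjusted p = 0.051, limma). When every used probe was tested on its own, Csf2ra did not pass on processed signals (adjusted p = 0.064, limma). It passed that test on the first set (adjusted p = 4.0e-04, limma) and with position correction (adjusted p = 0.0041, limma).

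Il3ra had normalised intensities of 1338 and 1131 with LMO2 siRNA and 1166 and 970 with control siRNA, which overlap between arrays but not within either array. Its log2 ratio was 0.21 ± 0.016 (adjusted p = 0.0022, limma), 0.14 with position correction (adjusted p = 0.058, limma) and 0.13 on processed signals (adjusted p = 0.2, limma).

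The shared chain Csf2rb was read by 3 probes, and the brightest was saturated with control siRNA on both arrays and with LMO2 siRNA on 1, so no fold is given for it. The first unsaturated probe, in row 103, had normalised intensities of 2728 and 2355 against 2104 and 2095 with control siRNA. Its log2 ratio was 0.27 ± 0.15 and, with position correction, 0.50 ± 0.10. The second, in row 444, had 2316 and 1562 against 1796 and 1119, with a log2 ratio of 0.42 ± 0.080 and, with position correction, 0.20 ± 0.096. Both probes were above 0 on both arrays in all 3 sets of values, and their order reversed with position correction. When every used probe was tested on its own, both passed with and without position correction, where 17% and 21.6% of 24735 probes were called higher. Neither passed on processed signals (adjusted p = 0.064 and 0.18, limma), where 3.45% were called higher. Csf2rb2, the second β chain of the mouse, which serves interleukin-3, was saturated with control siRNA on both arrays and is given no fold.

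Granulocyte and macrophage markers were read beside these chains, which such cells also carry. Of 14, 7 were measured, 2 were called higher and none lower, and 2 rose: Cd68 at 0.55 ± 0.055 (0.93 on processed signals) and Ltf at 0.16 ± 0.017 (0.69 on processed signals). The other 5 were not called: Itgam was -0.093, Lyz2 -0.045, Mpo -0.029, Prtn3 -0.023 and Ctsg 0.046. The list median was -0.023, and -0.14 on processed signals. On the first set 28.6% of the measured list was called, beside 51.9% of all genes. Elane, Adgre1, S100a8, S100a9 and Csf3r were not well above background, and the part of this list in the Csf2ra value was not tested.

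Il6st, the chain shared by the interleukin-6 family, was not called in any set of values. Its normalised intensities were 136 and 127 with LMO2 siRNA and 136 and 131 with control siRNA. The log2 ratio was -0.025 ± 0.034 (adjusted p = 0.74, limma). Of its partners, Il11ra1 was 0.18 ± 0.13, Lifr 0.15 ± 0.072, Il6ra 0.084 ± 0.029, Il27ra -0.055 ± 0.073 and Cntfr -0.21 ± 0.060, none of which passed in all 3 sets. On processed signals Lifr was 0.39, Il27ra -0.52 and Cntfr -0.81. Osmr was not well above background.

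The level of each receptor depends on how the dye balance is set, and this bears on the directions above. When each array was centred on its median in place of loess, the median of all tested genes moved from -0.018 to -0.40. Epor became -0.39 and Il3ra -0.37, both called lower. Kit was 0.11 (adjusted p = 0.33, limma), Csf2ra 0.013, Flt3 -0.32, Csf1r -0.42 and Il6st -0.23. Relative to that median, Kit lay 0.52 higher, Csf2ra 0.42, Il6st 0.17, Flt3 0.080, Il3ra 0.034 and Epor 0.012, and Csf1r lay at -0.014. Flt3, called lower on the first set, was thus above the median gene here. Under this centring no receptor gene was called higher and 5 were called lower, so Kit and Csf2ra were called with loess and on the scanner's processed signals but not with median centring.

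Several ligands of the receptors were not well above background. Of 20 cytokine ligands, 18 were on the array and 10 were measured, 2 of them called higher, 1 lower, and none rose or fell, with a median of -0.029. The called share of the measured ligands was 30%, beside 51.9% of all genes. Kitl, Csf2, Il3, Il5 and Il6 were among the 8 not well above background. Epo was -0.096 ± 0.053, Flt3l 0.088 ± 0.10, Csf1 -0.038 on average and Il34 -0.10 ± 0.020, none of which was called.

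Among 39 partner subunits and other class I and II cytokine receptors, 27 were measured, 9 were called higher and 3 lower, and 2 rose. Ifngr2, a chain of the interferon-γ receptor, rose by 0.96 ± 0.052, and Il2rg, the common γ chain of the interleukin-2 family, rose by 0.61 ± 0.0096, with 1.5 on processed signals. Ifngr1 was 0.50 ± 0.14 and did not pass in all 3 sets. Il5ra was not well above background. The median of the list was 0.042, and 44.4% of those measured were called on the first set, beside 51.9% of all genes.

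Of 24 other receptor tyrosine kinases, 12 were measured, 1 was called higher and 1 lower, and Igf1r, the receptor for insulin-like growth factor, rose by 0.52 ± 0.13. Met was -0.25 ± 0.068 (-0.13 with position correction), and the median was 0.023. The called share of those measured was 16.7%, beside 51.9% of all genes.

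Of 18 genes of the JAK-STAT core and its feedback, all measured, 5 were called higher and 6 lower, and 2 rose: Socs1, a feedback inhibitor of JAK kinases, by 0.64 ± 0.19 (1.02 with position correction and 1.08 on processed signals), and the transcription factor Stat3 by 0.59 ± 0.11. Stat5a, which acts downstream of Epor, was 0.47 ± 0.095 and its paralog Stat5b -0.30 ± 0.057, neither in all 3 sets. Jak2, the kinase bound to Epor, was -0.26 ± 0.024 and became 0.040 with position correction. Bcl2l1, a survival gene of erythroid cells, was -0.34 ± 0.082, and -0.22 with position correction. The list median was 0.011, and 61.1% of the list was called on the first set, beside 51.9% of all genes.

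Of 37 genes of receptor-proximal signalling and attenuation, 32 were measured, 7 were called higher and 3 lower, and Fes, a cytoplasmic tyrosine kinase of myeloid cells, rose by 0.98 ± 0.057. Crk was -0.48 ± 0.042 (-0.27 with position correction), Gab3 0.34 ± 0.053 (0.53 on processed signals) and Inpp5d, the phosphatase SHIP1, 0.33 ± 0.0055, without passing in all 3 sets. The median was 0.039, and 31.2% of those measured were called on the first set, beside 51.9% of all genes.

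**Figure D3:**
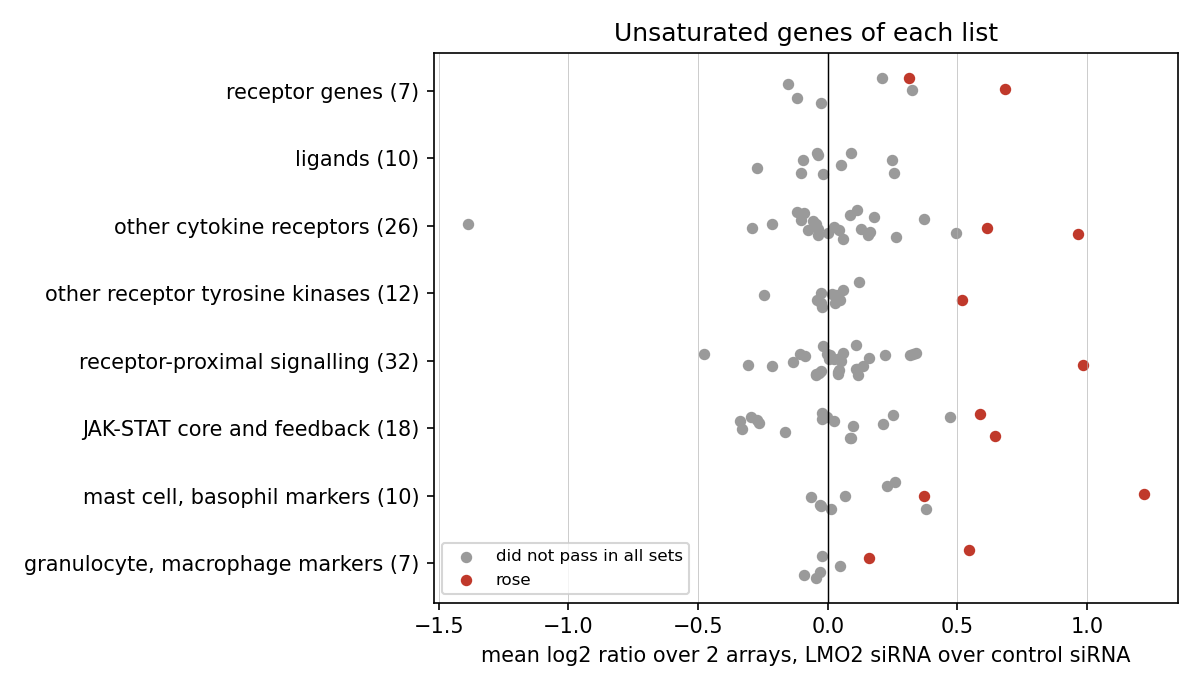
Mean log2 ratio over 2 arrays (x axis) of each measured, unsaturated gene in 8 lists (y axis, with the number of genes). Red points rose in all 3 sets of values and grey points did not pass in all of them: Kit (0.69) and Csf2ra (0.31) are the red receptor points, and the highest point of all is Hdc at 1.22.

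The labelled tissue was checked against its markers. All 12 erythroid markers on the array were measured, among them 3 globin genes whose probes were saturated, and 4 were called higher and 4 lower. The called share was 66.7%, saturated genes included, beside 51.9% of all genes. Rhd, a red cell membrane protein, rose by 0.31 ± 0.0098, Slc4a1 (band 3) was -0.49 ± 0.030 and the transferrin receptor Tfrc -0.25 ± 0.060. Because the label calls the cells murine ES cells, 10 pluripotency genes were read too, of which 6 were measured (Pou5f1, Esrrb, Utf1, Tdgf1, Dppa4 and Dppa5a). Nanog, Sox2 and Zfp42 were not well above background. On the first set 1 was called higher and none lower: Dppa5a was 0.38 ± 0.056 (adjusted p = 1.6e-06, limma), 0.22 with position correction and 0.40 on processed signals (adjusted p = 0.054, limma), so none rose or fell. Of 11 lymphocyte and dendritic cell markers, 7 were measured and 1, Cd3e, fell by 0.34 ± 0.14, with -0.61 on processed signals. Among measured genes, 16.7% of the pluripotency list and 28.6% of the lymphocyte and dendritic list were called on the first set.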

How the data were processed

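Both arms were measured on 2 dual-colour arrays of 1 slide. The scanner software was Agilent Feature Extraction 9.1.3.1, per the file headers. The deposited files give the intensity of each spot (mean, local background and processed). They also give a deposited position ratio per channel, a log10 ratio of red over green, and a p-value for it. The deposited series table holds the same log10 ratios within 0.005. For the array design, a genome build is not given in the sources used.

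Signals were background-corrected with normexp (offset 50) and loess-normalised in limma 3.58.1 (R 4.3.3), with the LMO2 siRNA arm as numerator. After removal of 1639 control spots, 24735 probes had at least 1 channel well above background on each array, and the brightest of these stood for its gene. For position correction, background-corrected signals were divided by the deposited position ratio and then loess-normalised. The test was lmFit and eBayes of the log2 ratio against 0. Probe names came from a RefSeq table of GRCm38.p6 for 24844 probes. The fit of the first set was run on log2 ratios simulated from its own variance model. That simulation held no dye, position or normalisation effect, so it cannot test for those.

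The named genes are the 8 receptors, Lmo2, direct partners and ligands, and up to 4 called members per list with the largest absolute ratio. The genes most like Kit are the 5 nearest unsaturated genes whose symbol is not a clone or predicted-gene name. Stat5b and Jak2, and marker genes outside this rule, were named after their values were seen. Some genes of the lists are counted but not reported here by name. The members and lists were chosen with earlier results of these data known. Alternatives covered background, offset, normalisation, filters, saturated and outlier-flagged spots, probe summary, variance prior, and the series table. Tests of every probe and of the brightest unsaturated probe were added after seeing the data. Figures were drawn with matplotlib.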

Additional observations from a re-analysis of the deposited data

How the results depend on the processing

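Counts of called genes depended most on the normalisation. On the scanner's processed signals 976 genes were called higher and 489 lower, against 3509 and 3923, with 3 receptor genes higher and 0 lower against 5 and 1. On the series' own table the counts were 898 and 425, with 2 and 0 receptor genes. With position correction 2567 genes and 0 receptor genes were called lower. With median centring 425 genes were called higher and 9239 lower, with 0 and 5 receptor genes, and the log2 ratios of Epor and Il3ra reversed to -0.39 and -0.37. The other alternatives kept these counts within 1.5 times. Kit lost its call only under median centring among the alternatives with a test. Each array alone gives a value without a test, so no count of calls: Kit was 0.69 without replicate 1 and 0.68 without replicate 2. Slide as a block was not run, because both arrays lie on 1 slide. The test of within-array ratios against 0 is itself paired by replicate. With 1 ratio per replicate, no replicate block can be added to it. Dim genes such as Csf2ra, Flt3, Csf1r and Il6st lie near background, which limits their ratios.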
